A study of Drosophila melanogaster with 3 samples.

Results

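The zinc finger protein Noc (No ocelli) was mapped on the genome of whole larvae of Drosophila melanogaster by ChIP-seq, in which DNA that precipitates with a protein is sequenced and peaks of coverage mark where it lay. Described here are the peak summits that lay within 500 bp upstream of a protein-coding start site at promoters whose coding starts all run in 1 direction, called non-divergent promoters below. They were chosen by position alone: the summit, taken from the authors' list of peaks kept at their threshold on the irreproducible discovery rate (IDR), had coding transcription start sites (TSSs) of 1 strand only within 500 bp, and it lay upstream of the nearest of them in the direction of transcription. Of 7201 IDR summits, 1519 were chosen (21.1%), at 1402 TSS positions of 1308 protein-coding genes. All 3 libraries belonged to 1 group, biological replicates of a transgenic line that stably expresses noc fused to GFP at its C terminus, and the precipitation was made with an antibody against GFP. The larvae were pooled males and females, sonicated to fragments of 200 to 800 bp, and their age is given in the labels as 48 days, which is long for a larva. The labels do not say whether the tagged gene adds copies of noc, and whole larvae mix all tissues, so a peak cannot be placed in a cell type. No untagged larvae were analysed here, so a peak is not by itself proof of binding by Noc, and a summit near a start does not show that the gene is controlled from it. The depth of sequencing is unknown, because no read totals come with the peaks, and replicate 2 held fewest of the IDR summits (85.8%, against 95.7% in replicate 1 and 94.3% in replicate 3). Wilson 95% intervals below cover counting error over summits or genes only.

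Noc and its paralogue Elbow B are nuclear zinc finger proteins of the NET family. They are known from the development of ocelli, appendages and tracheae, and Elbow is known to bind the corepressor Groucho. Fly core promoters are classed by short words. The TATA box lies shortly upstream of the start and the initiator (TCAGT is its common form) at the start itself. The word ATCGAT of the DRE is typical of housekeeping promoters, and GAGAG is bound by GAGA factor, which opens chromatin at many regulated genes.

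Sequences under 8 of the strongest summits are shown so that the DNA at the peak positions can be read. They follow the order of signal, leaving out Eno, whose window overlapped an annotated exon, and mRpL41, both between Atf3 and CG10165. Each is the RefSeq dm6 sequence within 50 bp of the summit, written 5′ to 3′ on the strand of the gene. Capitals mark matches on either strand to the 14 words searched, which are listed with the results on sequence. The windows were chrX:2703853-2703935 for Ugalt (minus strand, ended before the TSS), chr2L:5342558-5342658 for Acsf2 (minus), chr3L:19590565-19590665 for CG14100 (minus), chrX:15867934-15868034 for Gapdh2 (plus), chr3R:16280683-16280783 for gish (plus), chrX:1275441-1275541 for Atf3 (minus), chr2L:19528454-19528554 for CG10165 (minus) and chr3R:31588485-31588585 for CG1635 (plus). Their GC content ran from 21.8% (Acsf2 and CG1635) to 31.7% (Atf3), below the mean of 36.0% over all members. The window of CG14100 held none of the 14 words.
Ugalt: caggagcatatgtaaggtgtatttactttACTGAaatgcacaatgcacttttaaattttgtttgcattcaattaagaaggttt
Acsf2: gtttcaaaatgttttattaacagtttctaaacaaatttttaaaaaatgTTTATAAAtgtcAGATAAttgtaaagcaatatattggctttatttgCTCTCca
CG14100: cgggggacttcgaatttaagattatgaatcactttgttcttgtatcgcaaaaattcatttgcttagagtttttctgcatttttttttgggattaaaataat
Gapdh2: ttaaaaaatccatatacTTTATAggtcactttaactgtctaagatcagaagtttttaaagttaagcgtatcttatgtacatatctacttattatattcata
gish: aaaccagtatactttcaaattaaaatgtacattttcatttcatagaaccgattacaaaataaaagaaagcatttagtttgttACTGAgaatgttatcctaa
Atf3: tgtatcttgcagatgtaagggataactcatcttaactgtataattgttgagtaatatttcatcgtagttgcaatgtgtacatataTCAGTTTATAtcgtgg
CG10165: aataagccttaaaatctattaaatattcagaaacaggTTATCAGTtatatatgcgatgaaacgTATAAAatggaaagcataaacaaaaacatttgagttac
CG1635: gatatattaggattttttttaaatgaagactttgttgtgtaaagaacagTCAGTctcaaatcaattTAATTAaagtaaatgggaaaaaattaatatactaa

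A second set, from genes of digestive enzymes, is shown because their starts carry a TATA box more often than other starts do. These are the 60 bases before the TSS of 6 genes of the Jonah family of serine proteases, with TATAAA in capitals. Only Jonah genes with the word at 20 to 40 bp before the start are shown, and Jon99Ciii, which also has it, is not. Jon99Cii, Jon99Ci and Jon65Aii had an upstream summit but not the word there. The windows were chr3L:6050697-6050756 for Jon65Aiii (plus), chr3L:6039095-6039154 for Jon65Aiv (plus), chr3R:30488903-30488962 for Jon99Fi (plus), chr3L:8391480-8391539 for Jon66Ci (plus), chr3L:6054444-6054503 for Jon65Ai (minus) and chr2L:4950768-4950827 for Jon25Biii (minus). The first base of the word lay 30 bp upstream of the TSS in Jon65Aiii, Jon65Aiv and Jon65Ai, 29 bp in Jon99Fi and Jon66Ci, and 27 bp in Jon25Biii. Compared base by base without gaps, the 15 pairs of windows shared between 20% and 38.3% of positions (median 30%). The highest value was that of Jon65Aiii and Jon65Aiv. All windows were chosen for the word, so pairs with it at the same distance share its bases by choice. No baseline was computed, so the values do not measure likeness of the promoters.
Jon65Aiii: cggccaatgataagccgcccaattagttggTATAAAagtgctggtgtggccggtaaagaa
Jon65Aiv: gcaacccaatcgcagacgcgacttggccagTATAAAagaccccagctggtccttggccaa
Jon99Fi: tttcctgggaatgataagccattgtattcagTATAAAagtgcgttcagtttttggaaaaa
Jon66Ci: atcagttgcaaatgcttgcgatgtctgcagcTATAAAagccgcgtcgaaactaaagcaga
Jon65Ai: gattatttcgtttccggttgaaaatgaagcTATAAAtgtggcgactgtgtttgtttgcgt
Jon25Biii: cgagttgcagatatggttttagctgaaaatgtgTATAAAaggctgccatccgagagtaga

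The upstream summits formed a broad hump well before the start, unlike the summits downstream of it, which crowded against it. The median upstream distance was 197 bp, with quartiles of 107.5 and 296 bp, and it was 196 bp in replicate 1, 206 bp in replicate 2 and 188.5 bp in replicate 3, each cut to the 7201 strongest peaks of its list. Counts per 100 bp from the start outward were 353, 423, 377, 216 and 150 in the IDR list, where each bin includes its outer limit and not its inner one. The highest count was therefore not next to the start but 100 to 200 bp before it, where the replicates held 434 ± 12.5 summits (SD, n = 3). Downstream summits fell steadily from 448 ± 142 in the first 100 bp to 63.0 ± 5.29 at 400 to 500 bp (SD, n = 3). Upstream summits were 61.6% of all IDR summits at non-divergent promoters, with 944 downstream and 4 on the start base itself. In the replicates this share was 61.1%, 69.0% and 58.6%, highest in replicate 2, which had the fewest downstream summits (651, against 982 in replicate 1 and 1087 in replicate 3). The number upstream varied far less, with 1553, 1452 and 1540. Of the member summits, 51.1% lay within 200 bp of the start.

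**Figure D1:**
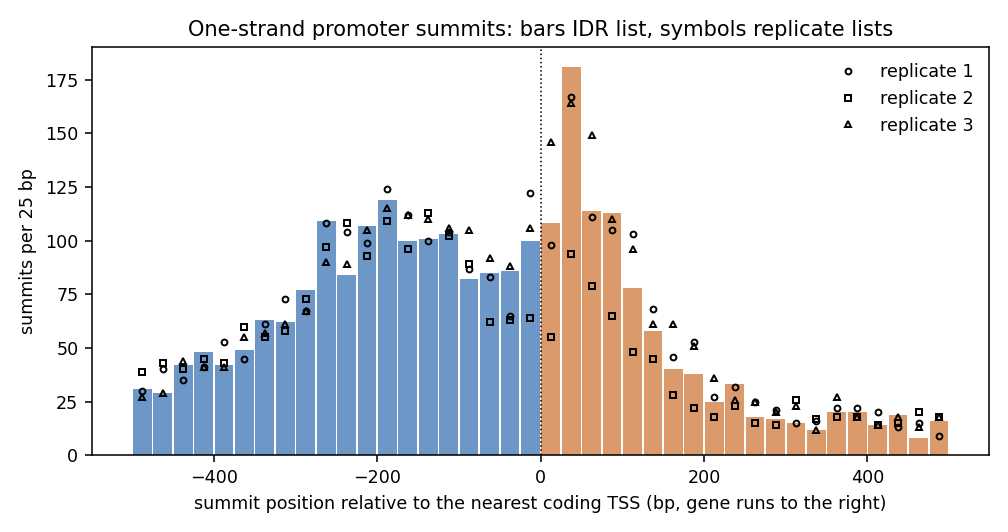
Number of summits in each 25 bp of position (x axis, bp relative to the nearest coding TSS, upstream to the left in blue, downstream to the right in orange) at non-divergent promoters. Bars are the IDR list and symbols the 3 replicate lists of the same length; the upstream summits spread around a median of 197 bp, while the downstream summits peak within 100 bp of the start, with replicate 2 lowest there.

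Which side of the start a summit fell on was well determined beyond 100 bp and poorly determined close to the start. A member was called found in a replicate when that replicate's list of 30000 peaks had a summit within 100 bp. Of the 1188 members found in all 3 replicates, 1052 (88.6%) also had the matched summit on the upstream side of a non-divergent promoter in all 3. This share was 97.9% at 100 to 200 bp, 98.4% at 200 to 300 bp and 99.4% at 300 to 400 bp. It was 82.0% at 51 to 100 bp, 68.6% at 26 to 50 bp, and 21.9% (14 of 64) for summits 1 to 25 bp from the start. The median displacement of matched summits was 12 bp in replicate 1, 22 bp in replicate 2 and 13 bp in replicate 3. The 100 members in the closest 25 bp are thus members by a margin of about the displacement between libraries. At 400 to 500 bp the share was 71.5%. A small displacement there can cross the 500 bp limit, but how many summits did so was not counted.

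**Figure D2:**
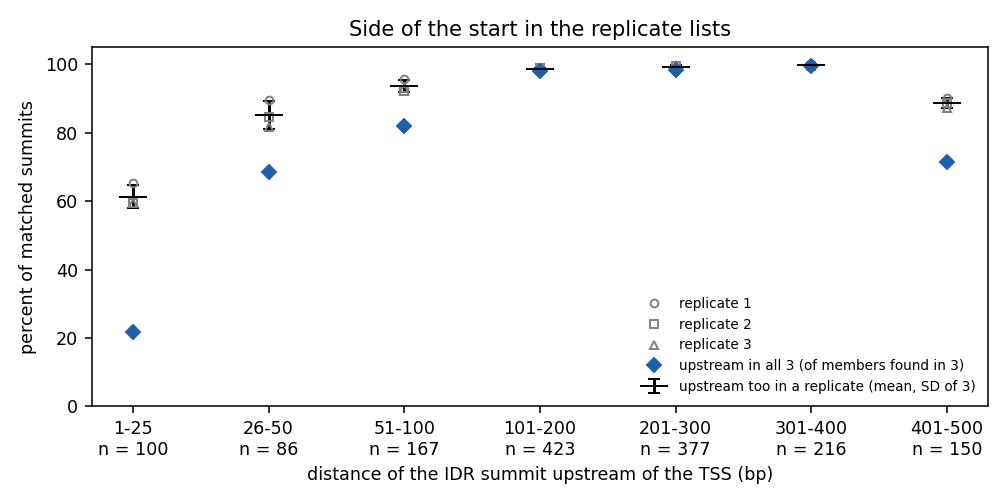
Percent of matched replicate summits (y axis) that also lay upstream, by distance of the IDR summit from the TSS (x axis, bp, with the number of members). Grey symbols are replicates with their mean and SD, and blue diamonds the members found in 3 replicates and upstream in all 3, from 21.9% in the closest 25 bp to 99.4% at 300 to 400 bp.

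The genes of cytosolic ribosomal proteins, which build the translating ribosome and have compact promoters with a polypyrimidine initiator, showed this displacement. Of 87 genes, 15 had an upstream summit, with a median distance of 16 bp. At non-divergent promoters 11, 25 and 8 of these genes had an upstream summit in replicates 1, 2 and 3, and 24, 13 and 32 had a downstream one. The number with either was nearly level, at 34, 37 and 39 genes. Their summits had a median position 32.0 bp downstream of the start in replicate 1, 12.5 bp upstream in replicate 2 and 33.0 bp downstream in replicate 3, so replicate 2 stood apart from the other replicates. RpL30, with its IDR summit 7 bp upstream (rank 1296), was upstream in all 3. RpL31 (9 bp), RpS12 (4 bp), RpL17 (16 bp) and RpS28b (4 bp) were upstream in replicate 2 and downstream in the other replicates. RpS5a (133 bp) and RpLP2 (103 bp) lay farther out and were upstream in all 3. The upstream count of this list is therefore not a stable value: it ran from 8 to 25 genes, an SD of 10.4 percentage points (n = 3). Over the 25 gene lists described below this SD ran from 0 to 13.6 points, so other short lists varied as well. Of all 13945 protein-coding genes 9.38% had an upstream IDR summit. The SD of that share, 0.0963 points (n = 3), is not a like measure, as it covers far more genes in lists of equal length.

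Signal followed the same geography, with the strongest upstream summits at 100 to 300 bp. The signal value is the authors' score per peak, whose scale no source here gives, and it was turned into a rank percentile within each list (100 for the strongest). The median percentile of upstream summits was 57.5, 58.9 and 58.0 in the 3 replicates, and that of downstream summits 40.3, 35.7 and 40.7, so the groups of medians do not overlap. The difference was 17.2, 23.2 and 17.3 percentile points, with a mean of 19.2 ± 3.43 (SD, n = 3; exact sign-flip permutation test, two-sided, p = 0.25). With 3 replicates 0.25 is the smallest p that this test can give, so no result below passes a threshold of 0.05 and any adjustment can only raise it. Upstream summits at 200 to 300 bp had a percentile of 68.8 ± 0.857 and those at 1 to 100 bp one of 43.1 ± 1.30 (SD, n = 3). The difference was 26.8, 27.0 and 23.2 points, higher in 3 of 3 replicates (exact sign-flip permutation test, two-sided, p = 0.25). With all 30000 peaks of each replicate the difference between upstream and downstream summits was smaller, at 7.43 ± 4.37 points (SD, n = 3). Downstream summits had no such middle maximum, with means between 36.0 and 48.5 across the same distances.

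Against divergent promoters, where coding starts of both strands lie within 500 bp, the direction of the difference depended on the replicate and on the settings. Their summits had median percentiles of 58.4, 68.0 and 55.1, and upstream minus divergent was −0.91, −9.16 and 2.94 (mean −2.38 ± 6.18, SD, n = 3; exact sign-flip permutation test, two-sided, p = 0.75). The sign changed between replicates, and the mean was positive when replicate 2 was left out (1.01) or the 3600 stronger peaks were taken (5.55). It was negative in 3 of 3 replicates with all 30000 peaks of each (−10.97 ± 5.90) and with a TSS distance of 250 bp (−8.51 ± 4.77; SD, n = 3; exact sign-flip permutation test, two-sided, p = 0.25 for each). Among the 100 strongest IDR peaks 44 were upstream summits at non-divergent promoters, 2 downstream summits and 18 summits at divergent promoters. Among the 1000 strongest the numbers were 325, 50 and 158. Of all 7201 IDR summits these classes made up 21.1%, 13.1% and 11.6%, so both upstream and divergent summits exceeded their share among the strongest. The median interval was 414 bp upstream and 329.5 bp downstream in the IDR list, but the replicate lists showed no such order: in replicate 2 both sides had a median of 400 bp in every distance bin, and in replicate 1 the first 3 bins had 416, 377.5 and 380.5 bp upstream and 420 bp each downstream. In the IDR list the upstream interval covered the start itself in 51.3%, compared with 70.2% of downstream peaks.

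**Figure D3:**
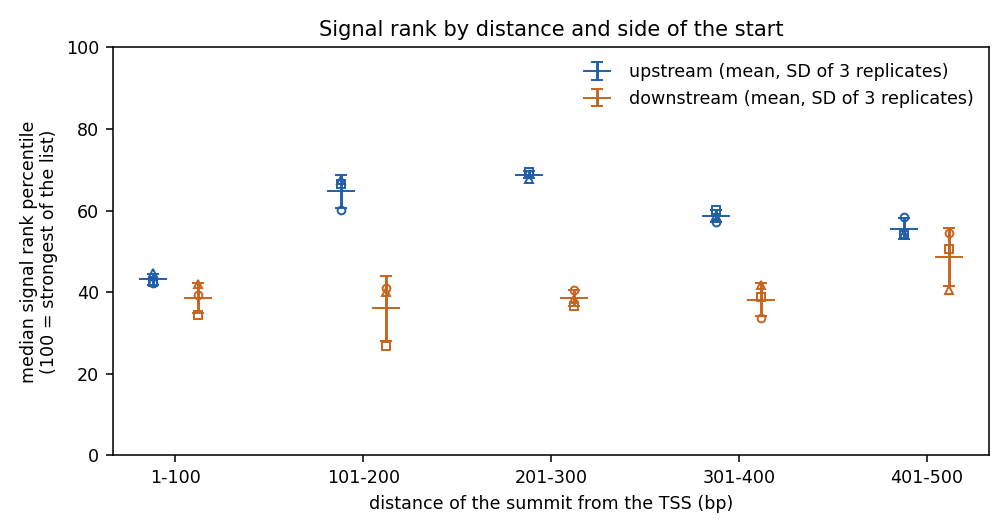
Median signal rank percentile (y axis, 100 for the strongest peak of a list) against distance of the summit from the TSS (x axis, bp) for upstream (blue) and downstream (orange) summits. Open symbols are the 3 replicates, dashes and bars their mean and SD; upstream summits are highest at 200 to 300 bp (68.8 ± 0.857) and lowest at 1 to 100 bp (43.1 ± 1.30).

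The strongest members ranked high in each library. They were picked by signal in a list made from these same libraries, so high ranks in each follow in part from the choice. Ugalt, which encodes a UDP-galactose transporter of the Golgi, had its summit 33 bp upstream and ranked 3 in the IDR list and 3, 3 and 3 in the replicates. Its summit was upstream in all 3 although it lay so close to the start. Acsf2, named for an acyl-CoA synthetase, had its summit 374 bp upstream and ranked 4, 4 and 5. CG14100 (91 bp) ranked 5, 1 and 11. The spread among these ranks is small on a scale of 30000 peaks. Gapdh2, for the glycolytic enzyme glyceraldehyde-3-phosphate dehydrogenase (161 bp), ranked 6, 27 and 4. The casein kinase gene gish (156 bp) ranked 7, 21 and 7, and Atf3, for a stress-responsive bZIP factor (207 bp), ranked 9, 9 and 20. Eno, for enolase (189 bp), ranked 20, 14 and 9, and mRpL41, for a protein of the mitochondrial ribosome (137 bp), ranked 21, 7 and 24. The next in order were CG10165, CG1635, Fkbp14, CG1888, papi, ph-p, Tina-1, Msp300, Sox14, Ptpmeg2, CG31145, Hex-A, larp, Sarm, C1GalTA, Glyp and brwl. All of these 25 were found upstream in every replicate, and the lowest rank among them was 115, for C1GalTA in replicate 2. Most lay 100 to 300 bp upstream, with Acsf2, ph-p (446 bp), Msp300 (418 bp) and larp (301 bp) beyond and Ugalt and CG14100 nearer.

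At the other end stood members whose rank differed most between libraries. CtBP, which encodes a corepressor, ranked 4984, 29560 and 2144, and prage ranked 24960, 5938 and 1649. CG8028 (7714, 29105 and 5830), ovm (6999, 27378 and 4691) were likewise weakest in replicate 2. The same held for fry, with ranks of 7187, 25307 and 2465. In 4 of these 5 members it is replicate 2 that gave the low rank, and prage is the exception, with its low rank in replicate 1.

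Recovery of the members was close to that of the whole list. In replicate 1 95.7% were found, in replicate 2 85.3% and in replicate 3 94.3%. All 3 replicates held 78.2% (1188; Wilson interval 76.1% to 80.2%), which is close to the 78.6% of all IDR summits, and 72.5% of downstream and 71.2% of divergent summits were found in all 3. Only 4 members were found in none. In replicate lists of the IDR length the share of members found in all 3 was 53.9%. Members in the closest 100 bp were found least often, with 67.1% in all 3 and 75.6% in replicate 2 alone, against 83.6% in all 3 at 200 to 300 bp.

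Most promoters held a single upstream summit. Of the 1402 TSS positions 1285 had 1, 117 had 2 and none had more. The spacing within these 117 pairs had a lowest value of 199 bp and a median of 204 bp, 86 of the pairs were 200 to 220 bp apart, and 67 shared an interval. The same spacing held across the IDR list, where no neighbouring summits were closer than 199 bp, 514 were 200 to 220 bp apart and 58 above 220 and up to 240 bp apart. A pair of summits at a start is thus no count of separate binding sites, and the part of peak calling in this spacing was not tested. By summed signal the leading pairs were those of Tina-1, CG1888, Msp300, by and Drat. In 68 cases a TSS had both an upstream and a downstream summit.

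The upstream summits lay between genes or in introns and seldom in exons. Between genes were 722 (47.5%; 47.4 ± 2.24% in the replicates, SD, n = 3) and in an intron of the gene whose start they were assigned to 533 (35.1%), which is possible where a longer transcript begins farther upstream. Of all members 58.9% belonged to the outermost start of their gene. Introns of other genes held 98 (6.45%), exons of the same gene 84 (5.53%) and exons of other genes 82 (5.40%). Where the summit was intergenic, the next gene upstream ran in the same direction in 66.1% of cases (477 of 722). For TSSs with 200 bp clear of genes this share was 64.9% at members, against 56.4% of all 6836 such non-divergent TSSs. The choice of promoters with coding starts of 1 strand within 500 bp applies to both numbers. Of the members 90 (5.92%) had a noncoding start within 500 bp, 75 of them on the opposite strand. The same share was not counted for other starts or summits.

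Across chromosome arms the share of non-divergent TSS positions with an upstream summit was even, at 9.09% on 2L, 9.82% on 2R, 9.32% on 3L, 9.60% on 3R and 9.90% on X. Over all 14770 positions it was 9.47%, and 5.80% had a downstream summit. The small chromosome 4 had no upstream IDR summit at 123 positions, for which counting error alone gives a limit of 2.44%. The replicate lists of the same length did place upstream summits there, at 3.25%, 2.44% and 2.44% of its positions, the first of which lies above that limit.

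The DNA at upstream summits was rich in A and T. Its mean GC content within 50 bp was 36.2%, 34.2% and 37.3% in the 3 replicates, and that at downstream summits 43.5%, 42.3% and 43.9%. The groups do not overlap, and the difference was −7.31 ± 0.738 percentage points (SD, n = 3; exact sign-flip permutation test, two-sided, p = 0.25). With a TSS distance of 1000 bp it was −4.78. Distance from the start goes with base composition at all non-divergent starts, whose GC content was 37.8% at 200 bp upstream and 42.2% at 80 bp downstream in 51 bp windows. At 200 bp upstream it was 36.7% for starts with an upstream summit and 36.0% for those with a downstream one, so the low GC content there was shared by promoters whose summit lay elsewhere. Across the promoter the members had a dip in GC at the summit (36.0% in the IDR list), 39.4% at 200 bp on the side away from the gene and 45.7% at 200 bp on the side of the gene. Summit minus far side was −3.29, −4.69 and −2.14 points, with the deepest dip in replicate 2.

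The word TATAAA was more frequent at the summit than 200 bp to either side, while GAGAG was less frequent there. The 14 words, each searched on both strands, were TATAAA of the TATA box, TCAGT of the initiator, ATCGAT of the DRE, GGTCACACT (part of a motif common at fly starts), the E box words CAGCTG and, of another kind, CACGTG, then GAGAG, bound by GAGA factor, TAATTA for homeodomains, the GATA factor words TGATAA and, as a variant, AGATAA, the CRE with TGACGTCA, the GC box with GGGCGG, the word CGGACG found at starts, and GAANNTTC of the heat shock element. TATAAA was present within 50 bp of 21.0%, 22.4% and 19.9% of upstream summits in the replicates, against 9.57%, 11.1% and 9.66% of downstream summits and 23.8%, 26.5% and 25.7% of divergent ones. In windows of the same size centred 200 bp away it was found in 14.9% on the far side and 10.1% on the side of the gene, with 21.3% at the summit. GAGAG showed the reverse, with 14.1% at the summit, 19.7% on the far side and 23.0% toward the gene. It was lower at the summit in 3 of 3 replicates on both sides (exact sign-flip permutation test, two-sided, p = 0.25 for each). At 400 bp on the far side its share was 15.7%. By class, GAGAG was within 50 bp of 14.1% of upstream, 14.4% of downstream and 8.25% of divergent IDR summits. The GATA words together, TGATAA or AGATAA, were in 21.9% of summit windows, 20.5% on the far side and 15.01% toward the gene. TAATTA was in 9.74%, 7.04% and 4.35%. TATAAA, the homeodomain word and the GATA words are poor in G and C, and how far the base composition sets their shares was not tested.

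Some words differed between the classes of summit. TGATAA was within 50 bp of 13.1% of upstream, 7.52% of downstream and 9.57% of divergent summits, and it was higher upstream than downstream in 3 of 3 replicates (5.64 ± 0.725 percentage points, SD, n = 3; exact sign-flip permutation test, two-sided, p = 0.25). ATCGAT was at 5.00% of upstream, 3.39% of downstream and 7.89% of divergent summits, and its excess upstream over downstream was 0.82, 1.87 and 1.69 points (exact sign-flip permutation test, two-sided, p = 0.25). Within 100 bp of the summit this excess was 0.36 ± 0.673 points (SD, n = 3) and not of 1 sign in the replicates. CGGACG was at 1.38% of upstream and 5.30% of downstream summits. The CRE, TGACGTCA, to which several bZIP factors bind, was at 3 of 1519 upstream summits.

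**Figure D4:**
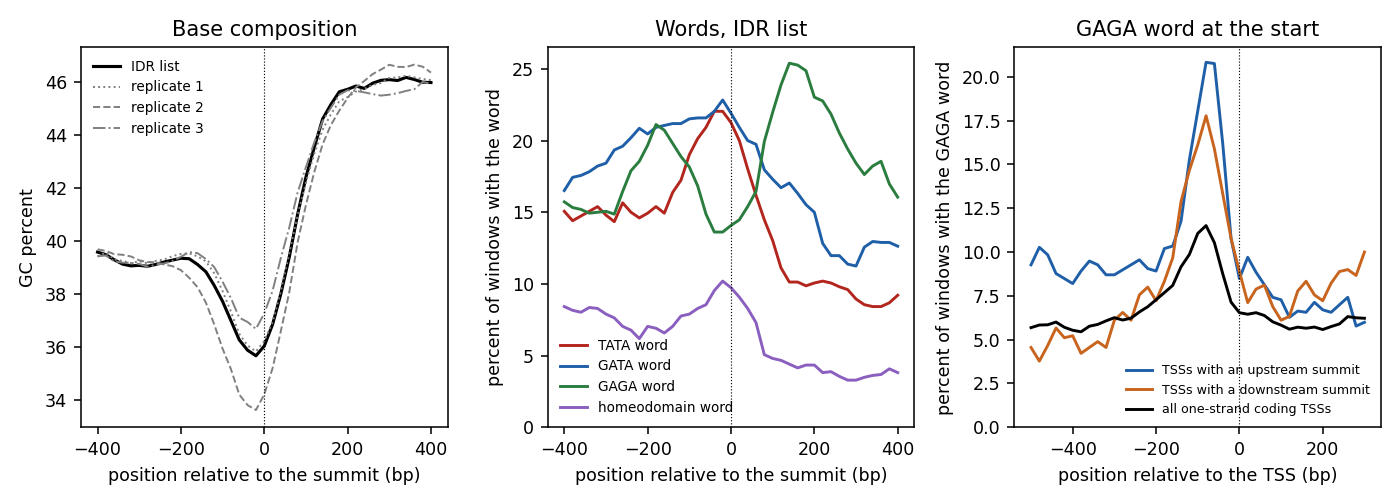
Left, GC percent within 50 bp of each position along the upstream summits (x axis, bp from the summit, gene to the right) in the IDR list and the replicates, with a low near the summit. Middle, percent of the same windows with the words of the TATA box, of GATA factors, of GAGA factor and of homeodomains (IDR list), where TATAAA reaches 21.3% at the summit and GAGAG falls to 14.1%. Right, percent of 51 bp windows with GAGAG around the TSS for starts with an upstream summit (blue), a downstream summit (orange) and all non-divergent starts (black), with 20.8%, 17.8% and 11.5% at 80 bp upstream.

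The start sites themselves, as opposed to the summits, held GAGAG and the initiator more often than all non-divergent starts did. Starts with a downstream summit did so too, to a lesser degree. From 100 bp upstream to 50 bp downstream of the start, GAGAG was present at 35.0%, 34.9% and 35.9% of the starts with an upstream summit in the replicates, against 22.5% of all non-divergent starts. At starts with a downstream summit it was 31.2% in the IDR list. The word was densest about 80 bp before the start (20.8% of 51 bp windows), between most summits and the start. TCAGT within 5 bp before to 10 bp after the start was found at 20.7% of member starts, 16.6% of those with a downstream summit and 14.3% of all. CGGACG was at 8.20% of member starts, 8.22% of those with a downstream summit and 4.90% of all. CAGCTG was at 13.2%, 14.3% and 9.70% in the same order, so neither word set member starts apart from starts with a downstream summit. ATCGAT was less common, at 8.70% of member starts against 17.6% of starts with a downstream summit and 11.7% of all. GGTCACACT was at 1.93%, 6.67% and 2.86% in the same order.

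The TATA box was also counted at its usual place. TATAAA at 20 to 40 bp upstream of the start was present at 6.63% of member starts and at 7.02% of all non-divergent starts. The difference was −0.72, −1.05 and −0.49 percentage points in the replicates (mean −0.75 ± 0.284, SD, n = 3; exact sign-flip permutation test, two-sided, p = 0.25). With the full lists of 30000 peaks per replicate its sign turned (0.17), while it was −2.03 ± 0.535 for TATAAA at 15 to 50 bp and −1.63 ± 0.228 with a TSS distance of 250 bp (SD, n = 3), negative in 3 of 3 replicates. Starts with a downstream summit had it in 3.11%. The strongest members with the word were Hsp27, for a small heat shock protein (rank 107 in the IDR list), CG4362 (166), CG9498 (217), Pino (283), cact, for the Toll pathway inhibitor Cactus (287), CG8665 (467), Ance, for an angiotensin-converting enzyme (497), and neur, for the ubiquitin ligase Neuralized of the Notch pathway (501).

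Gene lists drawn up from textbook roles, chosen with earlier results of these data known, differed widely in how many of their genes had an upstream summit. The highest shares were in genes of bZIP factors, glycolysis, digestive enzymes, heat shock proteins and insulin and TOR signalling. The lowest were in cuticle proteins, with 1 of 96 (Cpr67Fb), and in odorant, gustatory and ionotropic receptors, with 0 of 179 (an upper limit of 1.68% for a count of 0). The shares are read against the 9.38% of all protein-coding genes with an upstream summit, 6.15% with a downstream one, 5.94% with a divergent one and 19.7% with any of these. These are descriptions, and no test of the lists was made.

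**Figure D5:**
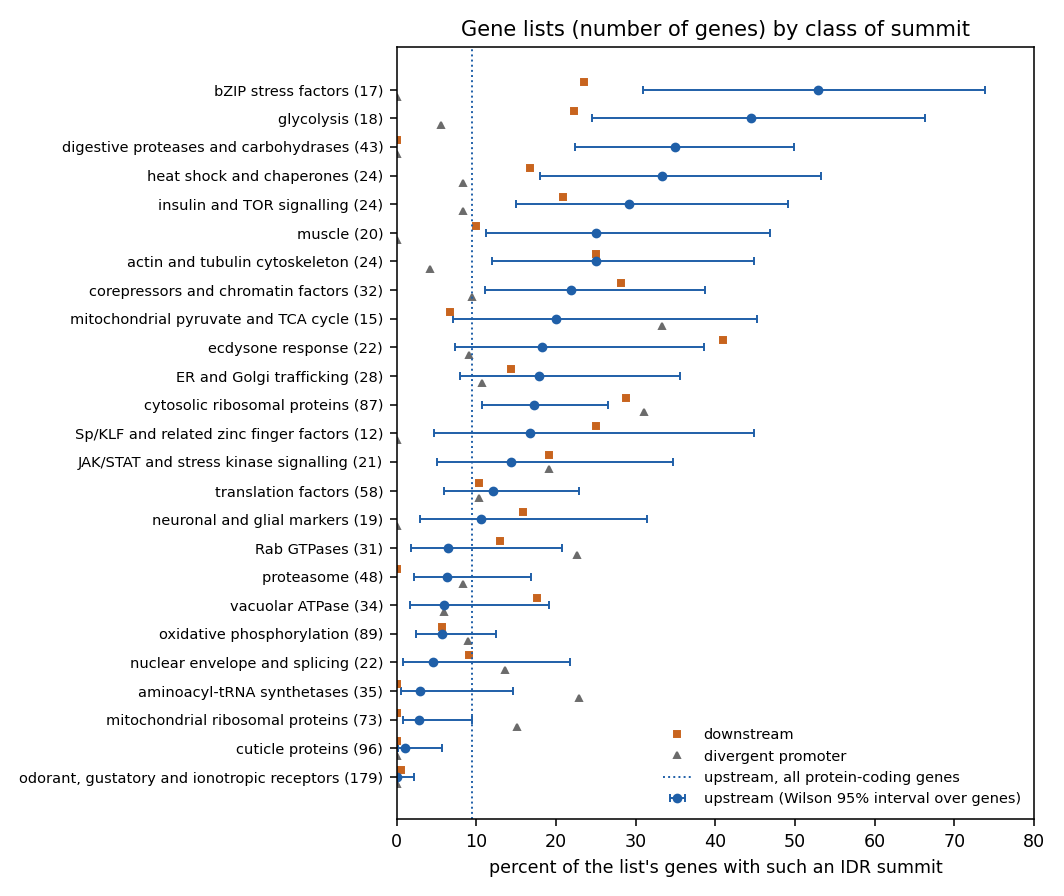
Percent of the genes of each list (number of genes in brackets) with an IDR summit upstream at a non-divergent promoter (blue circles with Wilson 95% intervals over genes), downstream (orange squares) or at a divergent promoter (grey triangles). The dotted line is the upstream share of all protein-coding genes, 9.38%; bZIP factors (9 of 17) and glycolysis (8 of 18) stand highest.

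Glycolysis, which breaks sugar down to pyruvate, had upstream summits at 8 of 18 genes, downstream ones at 4 and divergent ones at 1, with 9, 9 and 12 genes upstream in the replicates. The strongest summit of these genes had a median percentile of 93.4, against 61.8 over all genes with a member. Gapdh2, Eno and Hex-A (hexokinase, 173 bp upstream, ranks 43, 40 and 45) were among the 25 strongest members. Ldh, for lactate dehydrogenase (214 bp), ranked 430, 292 and 744, and Pgk, for phosphoglycerate kinase (186 bp), ranked 510, 673 and 633. These 5 lay between 161 and 214 bp from the start. The gluconeogenic gene fbp (182 bp) was not found in replicate 1 and ranked 669 and 1776 in the others. Hex-C (448 bp) ranked 1404, 1626 and 1773. Ald1, for aldolase, had its summit 23 bp upstream, was downstream in replicate 1, upstream in replicate 2 and not found in replicate 3. Glyp, for glycogen phosphorylase, which feeds glycolysis and is not on the list, had its summit 191 bp upstream and ranked 52, 84 and 48.

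Lists of mitochondrial energy metabolism gave the following counts. For oxidative phosphorylation 5 of 89 genes had an upstream summit, with a median percentile of 17.8, and for the pyruvate and TCA cycle list 3 of 15, with one of 11.2. In the replicates 3, 4 and 2 genes of the former list had one, and 1, 2 and 1 of the latter. The replicate means were 3.37% and 8.89%, against 9.38% of all protein-coding genes. The genes of the mitochondrial ribosome had 2 of 73 upstream, none downstream and 11 at divergent promoters, and mRpL41 (rank 13) stood apart from mRpL19 (rank 3244). The aminoacyl-tRNA synthetases, which charge tRNAs, had 1 of 35 upstream and 8 at divergent promoters, and the proteasome 3 of 48 upstream and 4 divergent.

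Digestive proteases and carbohydrases of the gut had their promoter summits on 1 side only: 15 of 43 genes had an upstream summit, and none had a downstream or divergent one. No other list with more than 1 upstream gene lacked both of these. In the replicates 13, 8 and 16 genes had one, fewest in replicate 2, and no replicate had one downstream. The peaks were of moderate signal, with IDR ranks from 940 to 6842 and a median percentile of 42.0. All 15 members of this list are named here, a choice made after their values were seen. The strongest was Jon99Cii, for a Jonah protease (151 bp, ranks 1353, 1766 and 604), followed by thetaTry, for a trypsin (88 bp, ranks 1478, 2755 and 1011). Jon65Aiii (325 bp) ranked 1461, 9788 and 1659, and Mal-A3, for a maltase (261 bp), ranked 1976, 4332 and 1573. For Jon65Aiii and Mal-A3 replicate 2 gave the lowest rank, as it did for Jon65Aiv (2784, 5601 and 1998), Jon65Ai (3665, 18103 and 4252), Jon25Biii (10545, 26057 and 3557), Jon99Ciii (5602, 20318 and 2843), etaTry (4644, 22169 and 4663) and Jon66Ci (5425, 6195 and 5557). The exceptions were Mal-A5 (7439, 1875 and 6270), strongest in replicate 2, Mal-A1 (6823, 5653 and 4094) and Jon65Aii (8921, 6688 and 5730). Jon99Ci was not found in replicate 2, and Jon99Fi was found in replicate 1 only (rank 3320). For the other 13 genes a summit was found in all 3.

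The starts of these genes carried the TATA box shown above. It was present at 20 to 40 bp before the start in 9 of the 15, namely Jon65Aiii, Jon65Aiv, Jon99Fi, Jon66Ci, Jon65Ai, Jon25Biii, Jon99Ciii, thetaTry and Mal-A1. Of all 38 non-divergent starts of the list 16 had it, with or without a summit, against 7.02% of all non-divergent starts. Several of the genes are neighbours: Jon65Ai, Jon65Aii, Jon65Aiii and Jon65Aiv lie together on 3L, Jon99Ci, Jon99Cii and Jon99Ciii on 3R, and thetaTry and etaTry as well as Mal-A1, Mal-A3 and Mal-A5 on 2R. Members of such clusters are not independent, and the handling of reads shared by related genes is not stated in any source here.

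The bZIP list, factors that answer starvation, unfolded protein, oxidative stress and the clock, had 9 of 17 genes with an upstream summit (9, 9 and 5 in the replicates) and 4 with a downstream one. After Atf3 came vri, for the clock repressor Vrille (206 bp, ranks 372, 430 and 283), and Pdp1, for its counterpart in the clock (438 bp, ranks 386, 150 and 748). The gene of the oxidative stress factor Cap-n-collar, cnc (179 bp), ranked 706, 3644 and 595. Xbp1, for the factor of the unfolded protein response (61 bp), ranked 1183, 1090 and 1632, and CrebA, for a regulator of secretory capacity (331 bp), 1493, 2667 and 3159. In replicate 3 the summits of CrebB (168 bp), kay (415 bp) and crc (223 bp, the fly ATF4, at a start shared with CG46314) were not found, and that of Pdp1 was no longer within reach of the start. Genes of the list with a downstream summit numbered 6, 3 and 7 in the replicates, and those with either 10, 9 and 10. The median position of their summits was 42.0 bp downstream of the start in replicate 3. It was 107 bp upstream in replicate 1 and 172 bp upstream in replicate 2. The upstream count of this list is thus not a stable value, while the number with either was nearly level.

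Heat shock and chaperone genes had upstream summits at 8 of 24, with 6, 6 and 6 in the replicates, and downstream ones at 4. Hsp27 (179 bp) ranked 93, 104 and 116, Hsp26 (123 bp) 636, 1317 and 875, and Hsp22 (472 bp) 1174, 976 and 1804. These small heat shock genes lie in 1 cluster on 3L. The co-chaperone gene stv, for Starvin (403 bp), ranked 241, 263 and 459, and Hsp83, for the fly Hsp90 (113 bp), 1116, 1818 and 489. The others, Hsc70-3 (IDR rank 3269), Hsp60A (7105) and Droj2 (7141), were weak, the last pair close to the end of the list.

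The insulin and TOR list, which couples growth to nutrition, had 7 of 24 genes with an upstream summit (9, 5 and 8 in the replicates) and 5 with a downstream one. Sesn, for Sestrin, an inhibitor of TOR complex activity (252 bp, a start shared with CG46429), ranked 162, 204 and 157. REPTOR, for a factor active when TOR is low (148 bp), ranked 193, 318 and 126, and foxo, for the factor held out of the nucleus by insulin signalling (387 bp), 420, 254 and 537. Pi3K21B, for the adaptor subunit of PI3 kinase (122 bp), ranked 1082, 444 and 1021. Thor, for the translation repressor 4E-BP (192 bp), ranked 1659, 22158 and 1293, far lower in replicate 2. InR, for the receptor (84 bp), and ImpL2, for a secreted antagonist (39 bp), were weak (IDR ranks 5401 and 6695) and each was missing from 1 replicate.

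Corepressors and chromatin factors had 7 of 32 upstream and 9 downstream. The Polycomb gene ph-p (446 bp) ranked 22, 22 and 17, and sbb (164 bp) 196, 232 and 137. The gene of the corepressor Groucho, gro (150 bp), ranked 395, 341 and 481. Sin3A (378 bp) ranked 846, 2635 and 565, and Trl, for GAGA factor (345 bp, a start shared with CG42507), 3319, 4900 and 4220. CtBP and ph-d (97 bp, not found in replicate 3) were weaker, with IDR ranks of 5414 and 5148.

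The remaining lists had between 1 and 7 genes with an upstream summit. The translation factors had 7 of 58, led by eIF6 (110 bp, ranks 172, 122 and 171), and the actin and tubulin list 6 of 24, led by Act5C (420 bp, ranks 1248, 1370 and 1097). Muscle genes had 5 of 20, of which sls, for titin-like Sallimus (274 bp), ranked 1109, 897 and 2104. The ER and Golgi list had 5 of 28, led by Ugalt, and the ecdysone list 4 of 22 upstream against 9 downstream, led by E23 (253 bp, ranks 198, 186 and 218). The JAK/STAT and stress kinase list had 3 of 21, led by Mekk1 (117 bp, IDR rank 2691). Neuronal and glial markers had 2 of 19, both strong: elav (276 bp, ranks 55, 73 and 55) and moody, for a receptor of the glial blood-brain barrier (173 bp, ranks 267, 752 and 135). Rab GTPases had 2 of 31, Rab5 (227 bp) and Rab11 (78 bp), the vacuolar ATPase 2 of 34, Vha68-2 and VhaPPA1-1, and the nuclear envelope and splicing list 1 of 22, LamC (434 bp).

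Among Sp/KLF and related zinc finger genes 2 of 12 had an upstream summit, cbt and noc itself. The summit at cbt, for the factor Cabut, lay 379 bp upstream and ranked 211, 200 and 100. That at noc lay 14 bp upstream of the start, with signal 1080 (IDR rank 559), ranked 693 in replicate 1 and 305 in replicate 3, and was not found in replicate 2. If the transgene adds copies of noc, which the labels do not say, these cannot be told apart from its endogenous start in these lists. Its paralogue elB had no upstream summit at a non-divergent promoter.

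The limit of 500 bp passed through a thin part of the distribution. Just inside lay jar (500 bp, signal 2042), Sema5c (500 bp, signal 316) and Mkp3 (499 bp, signal 1162). Just outside were a second summit at larp (501 bp, signal 354), CG10365 (502 bp, signal 490) and CG18135 (504 bp, signal 948).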

How the data were processed

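The deposited files were peak lists of 3 ChIP-seq libraries. Per the text notes deposited beside them, each replicate list was made from that library and a control alignment, a pooled list from all libraries, and the IDR list from these. The assembly is dm6, per the labels. Peak caller, aligner and settings: not given in the sources used. The control was not analysed here. The signal value is a score of the authors with an unknown scale; it served to rank, filter or describe peaks, never across lists. All IDR peaks share the ceiling of 4.27 in the −log10 q value deposited by the authors, which was therefore left unused. Replicate and pooled lists hold 30000 peaks each, and a check showed the IDR list to be the 7201 pooled peaks of highest signal. The pooled list held 4135 upstream, 3284 downstream and 1634 divergent summits by the same rule.

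Coordinates are 1-based. Coding TSSs came from the Ensembl annotation of dm6 (BDGP6), without transposons, on the 6 main arms. A non-divergent TSS position has no coding TSS of the other strand within 500 bp, and 3 member TSS positions fell outside that set, since the rule was applied at the summit. Scripts ran in Python 3.11.15 with scipy 1.17.1, pandas 2.3.3, numpy 2.4.6 and, for figures, matplotlib 3.10.9. Replicate lists were set to 7201 peaks, except for matching within 100 bp. Differences between classes were taken within each replicate and tested by the exact sign-flip permutation over the 3 replicates, two-sided. Classification, matching and word search were tested on simulated summits and sequences.

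The members, 25 gene lists, words and tests were chosen with earlier results of these data known. In the lists 5 older symbols were looked up under current names and 8 of 307 entries were not matched. Genes named were the 25 strongest members, the 5 TSSs with 2 members and the highest summed signal, up to 4 of the strongest per list, noc and elB, the 3 on each side of 500 bp, the 5 of most variable rank and the 8 strongest with a TATA box. The further members of the lists described one by one, all words at the start besides TATAAA and TCAGT, the windows 200 bp beside the summit, the difference between distances and the summit spacing were chosen after the data were seen.

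Alternatives were TSS distances of 250 and 1000 bp, outermost gene starts only, the 3600 IDR peaks of higher signal, the strongest summit per TSS, each replicate left out, full replicate lists, matches within 50 or 250 bp or in lists of the IDR length, sequence windows of 51 and 201 bp and TATAAA at 15 to 50 bp. No sequence from chromosome arm 2R is printed, which leaves out the window of mRpL41.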

Additional observations from a re-analysis of the deposited data

How the results depend on the processing

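Of 141 alternative values, 112 were classed as kept, 26 moved and 3 reversed. Kept meant the same sign for a tested difference, whatever its size, and a count within a fixed factor of the main one. For shares and distances it meant a shift below the SD of the replicates. Outside the values with a replicate left out, which overlap in data, 69 of 93 were kept. The higher signal rank than downstream summits kept its sign in 9 of 9 alternatives, but ran from 7.43 (full replicate lists) to 24.5 (the 3600 stronger peaks). The lower GC content kept its sign in 11 of 11 (−8.75 to −4.78), and so did the mean ATCGAT excess (0.36 to 2.68), which was not of 1 sign in the replicates within 100 bp of the summit (p = 0.5, exact permutation). The rank difference from divergent summits reversed with the 3600 stronger peaks (5.55) and without replicate 2, and ran from −5.03 to 1.01 over the replicates left out; it was −10.97 with full lists and −8.51 at 250 bp. The TATAAA difference at the start reversed with full replicate lists (0.17) and was −2.03 at 15 to 50 bp. At a TSS distance of 250 bp the median distance was 128 bp, the share within 200 bp 81.6% and the share of TSS positions 6.59%; at 1000 bp they were 251 bp, 39.6% and 11.6%, and 9 ribosomal protein genes had an upstream summit. These limits cut the range of distances, so such shifts follow from the construction. With outermost starts only there were 961 members, 55.8% of non-divergent summits and 8.69% of TSS positions, with 5 glycolysis and 5 heat shock genes. With the 3600 stronger peaks there were 882 members, 71.5% of non-divergent summits, a median distance of 207 bp, 46.9% within 200 bp, 5.63% of TSS positions, 85.7% found in 3 replicates and 5 digestive enzyme genes. The share found in all replicates was 51.8% within 50 bp, 92.5% within 250 bp and 53.9% in lists of the IDR length, and with a replicate left out it ran from 81.1% to 90.7%, highest without replicate 2. The share of TSS positions then ran from 7.91% to 8.77%, as members had to be found in both other libraries. The alternatives on gene lists were chosen after the data were seen. A replicate left out had still contributed to the pooled call. The unknown depth of the libraries limits what a missing peak means.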
